A study of Mus musculus with 8 samples.

Results

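Immediate early genes were examined in tumors of LSL-MYCN;Dbh-iCre mice through 10 named members: Fos, Fosb, Jun, Junb, Egr1, Egr2, Egr3, Atf3, Ier2 and Dusp1. They form a list of names, with no threshold on their values, that was drawn up with earlier results of these data known, and every probe set that the platform annotation assigns to one of them alone was taken. This gave 13 of the 34958 single-gene probe sets, and 10 of the 18194 genes measured. Total RNA of 8 untreated tumors had been hybridized to Affymetrix mouse whole-genome arrays, with 1 array for each tumor. Tumors 7 and 8 arose in the superior cervical ganglion (SCG), a sympathetic ganglion of the neck, and tumors 1 to 6 in the adrenal. All 8 carried the same alleles: human MYCN behind a CAG promoter and a loxP-flanked stop in the ROSA26 locus, joined by an IRES to luciferase, and an iCre driven by Dbh, the gene for dopamine beta-hydroxylase. The transgene is thus switched on only where Dbh is or was active. Ages of the animals, the time between death and RNA isolation, and whether each tumor came from a separate mouse are not given in the sources used here, so p-values measure the spread between these tumors.

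Immediate early genes are transcribed within minutes of a stimulus, without the need for new protein, and their mRNAs are short-lived. Growth factors, neuronal activity and cell stress act through kinases on factors that are already bound to DNA, among them SRF with its ELK partners at CArG boxes and CREB at cyclic AMP response elements (CRE). Fos, Fosb, Jun, Junb and Atf3 encode leucine zipper proteins that pair into AP-1 or related dimers, Egr1, Egr2 and Egr3 encode zinc finger factors, Ier2 encodes a nuclear regulator, and Dusp1 encodes a phosphatase that switches off MAP kinases.

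Promoter windows of 7 of the 10 genes were taken from RefSeq on build GRCm38.p6, and 5 are shown because they hold the motifs discussed here and belong to genes that peaked in different tumors. Each is the stretch of 250 bases before the annotated start, 5′ to 3′ on the gene's strand. Fos lies at chr12:85473640-85473889 on the plus strand, Junb at chr8:84978749-84978998 on the minus strand, Egr2 at chr10:67537619-67537868 on the plus strand, Atf3 at chr1:191183334-191183583 on the minus strand and Dusp1 at chr17:26508473-26508722 on the minus strand. Capitals mark matches to the motifs searched.
Fos promoter: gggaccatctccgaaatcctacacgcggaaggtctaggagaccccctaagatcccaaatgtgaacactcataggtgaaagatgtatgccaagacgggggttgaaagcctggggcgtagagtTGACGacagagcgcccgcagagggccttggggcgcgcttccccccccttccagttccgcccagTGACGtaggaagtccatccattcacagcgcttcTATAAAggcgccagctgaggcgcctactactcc
Junb promoter: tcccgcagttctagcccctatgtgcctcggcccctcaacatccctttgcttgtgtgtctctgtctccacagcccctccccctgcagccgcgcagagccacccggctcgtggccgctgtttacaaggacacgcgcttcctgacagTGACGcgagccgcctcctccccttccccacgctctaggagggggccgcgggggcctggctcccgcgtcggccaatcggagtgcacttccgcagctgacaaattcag
Egr2 promoter: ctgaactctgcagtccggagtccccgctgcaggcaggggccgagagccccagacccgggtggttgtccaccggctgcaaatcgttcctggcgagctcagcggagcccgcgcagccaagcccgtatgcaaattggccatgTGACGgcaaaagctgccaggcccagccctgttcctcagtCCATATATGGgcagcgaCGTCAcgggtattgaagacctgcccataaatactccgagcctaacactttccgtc
Atf3 promoter: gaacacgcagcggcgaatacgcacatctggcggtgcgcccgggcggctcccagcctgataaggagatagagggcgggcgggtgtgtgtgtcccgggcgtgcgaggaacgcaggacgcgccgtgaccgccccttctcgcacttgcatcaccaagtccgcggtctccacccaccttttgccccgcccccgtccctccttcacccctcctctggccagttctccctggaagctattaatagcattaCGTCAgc
Dusp1 promoter: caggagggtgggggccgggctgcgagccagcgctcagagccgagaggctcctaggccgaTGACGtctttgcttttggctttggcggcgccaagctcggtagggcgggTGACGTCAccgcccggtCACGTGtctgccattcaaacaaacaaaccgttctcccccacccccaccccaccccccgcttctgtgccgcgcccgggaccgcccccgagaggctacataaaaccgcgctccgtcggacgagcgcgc

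The motifs were searched on both strands over 250 bases before and 50 after each start. The full CRE, TGACGTCA, occurred in Dusp1 alone among the 7 genes with a window, and in 1.79% of all 32851 windows (2.03% of genes). Its shorter core TGACG, which every full CRE contains, occurred in 6 of the 7 genes with a window (Fos, Fosb, Junb, Egr2, Atf3 and Dusp1), against 23.0% of all 27025 genes with a window. In Fos it started at positions -129 and -66 from the transcription start. The 250 bases before the start held 54.0% to 71.2% G or C in the windows of the 7 genes. The median over all windows was 52.4%. The shares were not matched for base composition or for the number of annotated starts per gene, and the part of either was not tested. Among the 7 genes with a window, a CArG box stood only in Egr2 (1.81% of all genes with a window), at positions -72 to -63 of the window shown. Egr1, Egr3 and Ier2 had no window here, and bases farther upstream than 250 were not searched in any gene. TATAAA was present in Fos and in Junb (15.7% of all genes with a window), in Junb just after the start and outside the stretch shown. The E-box CACGTG, a sequence that MYC family dimers recognize, was present in Dusp1 and in another annotated Egr2 start (8.09% of genes). The AP-1 motif TGACTCA (5.95% of genes) and the EGR motif GCGTGGGCG (0.707%) had no match in the 7 genes. A match describes the letters of the window and says nothing of whether a factor was bound in these tumors.

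Several arrays stood apart before any early gene was considered. Expression is given as deposited log2 values, and a probe set was called detected above the 95th percentile of 86 sensory receptor probe sets, a limit of 6.71 to 7.21 in the 8 arrays that 43.1% to 51.7% of all probe sets passed. Tumor 7 correlated with its nearest other array at 0.96, against 0.98 to 0.99 for the other 7 tumors, and 10 of 13 noradrenergic markers were detected in it, against 13 of 13 in each other tumor. Dbh was 9.07 in tumor 7 and 13.13 in tumor 8, against 12.53 to 13.54 in the adrenal tumors. Tumor 6 carried liver transcripts, with a hepatocyte list mean 5.51 above zero when each gene was centred. RNA integrity was read from the gap between the 3′ and 5′ control probe sets of Gapdh, which was 5.51 in tumor 1 and 0.47 to 1.57 elsewhere. In bulk RNA, a change in the number of cells of a type and a change in RNA per cell cannot be told apart.

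Of the 10 genes, 5 were detected in all 8 tumors (Fos, Jun, Egr1, Ier2 and Dusp1), against 61.3% of the 16254 genes tested. Egr3 and Atf3 were detected in 7 tumors, Junb only in tumor 7 and Egr2 only in tumor 8. Fosb was not well above background in any tumor, so its values carry no order. Per tumor, 8 genes were detected in each SCG tumor and 6 or 7 in each adrenal tumor. Of all probe sets, 51.6% and 49.8% were detected in SCG tumors 7 and 8, against 43.1% to 51.7% in the adrenal tumors. The counts depend on the limit of each array. In tumor 2, Junb at 7.07 and Egr2 at 7.05 lay under its limit of 7.21 but above those of tumors 7 (6.72) and 8 (6.77). With the 99th percentile as the limit, 6 and 7 were detected in SCG tumors 7 and 8, against 4 to 7 in the adrenal tumors, so the sites overlapped.

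**Figure D1:**
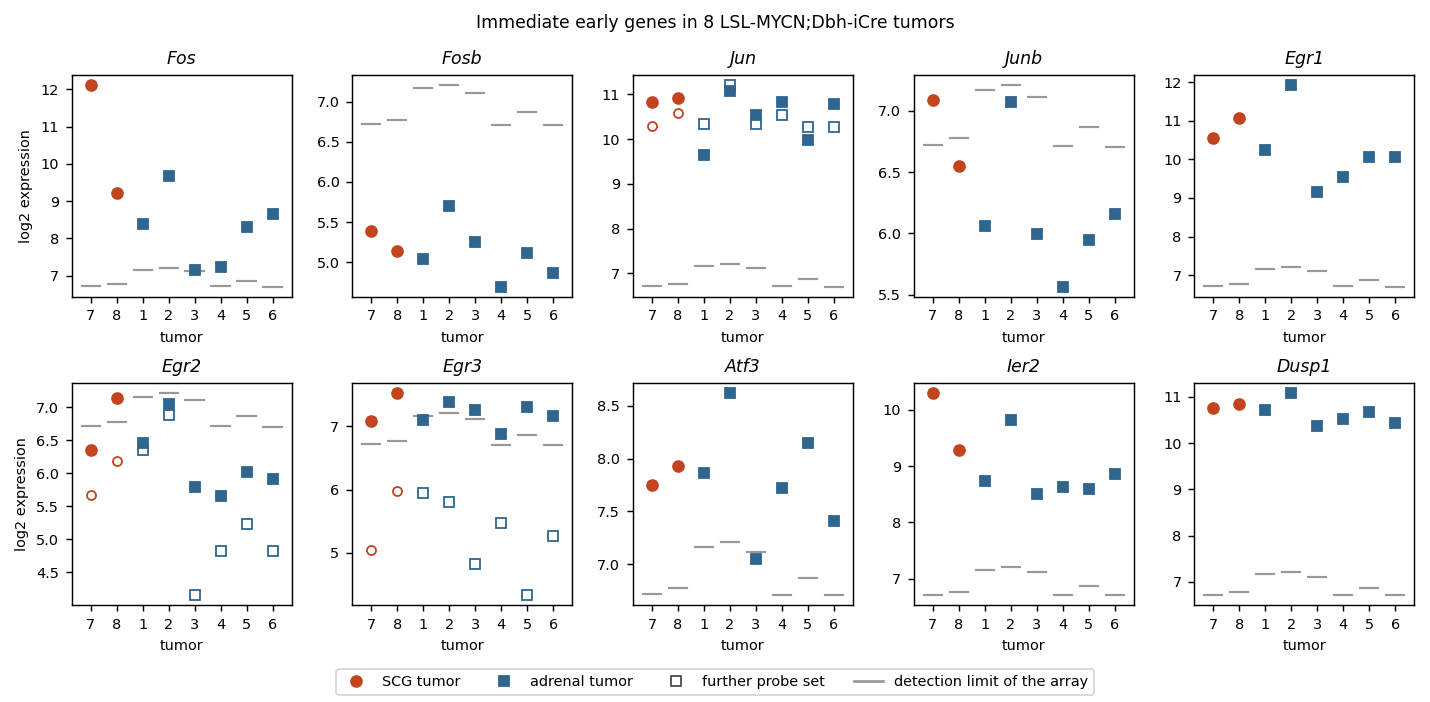
Log2 expression of the 10 immediate early genes in each tumor (x axis, SCG tumors 7 and 8 as circles at left, adrenal tumors 1 to 6 as squares), 1 array per tumor and hence no error bars. Open symbols are further probe sets of the same gene and gray bars the detection limit of each array; Fos of tumor 7 stood at 12.13 while all other tumors lay at or below 9.67, and Fosb lay under the limit throughout.

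Fos, the partner that gives AP-1 dimers much of their DNA affinity, varied most among the 10. Its log2 level was 12.13 and 9.23 in SCG tumors 7 and 8, against 8.38, 9.67, 7.15, 7.24, 8.30 and 8.66 in adrenal tumors 1 to 6. Tumor 7 lay 3.75 above the mean of the other 7 tumors, tumors 3 and 4 lay lowest, with tumor 3 just above its limit of 7.11, and the sites overlapped because tumor 2 exceeded tumor 8. The SD over the 8 tumors was 1.59, higher than that of 99.3% of genes tested. SCG tumors averaged 10.68 ± 2.05 (SD, n = 2) and adrenal tumors 8.23 ± 0.94 (SD, n = 6). The difference of 2.45 (SE 0.82, 95% interval 0.58 to 4.31) did not pass in limma after Benjamini-Hochberg adjustment (adjusted p = 0.90), and the exact permutation test of the site labels gave p = 0.071, two-sided, where 28 assignments allow no less than 0.036. Without tumor 7 the difference was 1.00, whereas without tumor 8 it was 3.90 and passed (limma adjusted p = 0.033). The fit without tumor 8 set the single tumor 7 against the adrenal tumors and took its spread to be theirs.

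Ier2 had the same tumors in front as Fos. It was 10.29 and 9.29 in SCG tumors 7 and 8, against a lowest value of 8.51, a median of 8.69 and a highest of 9.82 in the adrenal tumors. Its order was tumor 7, then 2, then 8, and the other 5 adrenal tumors lay within 8.51 to 8.86. The difference was 0.93 (SE 0.38, 95% interval 0.08 to 1.78, limma adjusted p = 0.90; exact permutation p = 0.071). Without tumor 7 it was 0.43 and without tumor 8 it was 1.43.

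Junb encodes an AP-1 subunit that often restrains Jun. It was 7.09 and 6.55 in SCG tumors 7 and 8, against 5.57, 6.03 and 7.07 as the lowest, median and highest adrenal values. Tumors 7 and 2 were level within 0.02, but the limit was lower in tumor 7 (6.72) than in tumor 2 (7.21), so the gene counted as detected in tumor 7 only. The difference of 0.68 (SE 0.34, limma adjusted p = 0.90) was taken between values at or near background and stands for no fold change. It was 0.41 without tumor 7.

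Jun, the core AP-1 subunit, was detected throughout and varied less. Its brighter probe set was 10.83 and 10.93 in SCG tumors 7 and 8, against 9.64, 10.66 and 11.07 as the lowest, median and highest adrenal values. Tumor 2 was highest and tumor 1, the tumor with the wide Gapdh gap, was lowest, so Jun was the only member whose minimum lay outside tumors 3 and 4. The further probe set of Jun was 10.29 and 10.59 in the SCG tumors, against 10.27 to 11.22 in the adrenal tumors, again with tumor 2 on top. The 2 probe sets disagreed in the direction of the site means: SCG tumors averaged 10.88 and adrenal tumors 10.47 on the brighter one, and SCG tumors averaged 10.44 and adrenal tumors 10.50 on the other. The brighter one differed by 0.41 (SE 0.36, limma adjusted p = 0.93), and by 0.24 without tumor 1.

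Fosb, a Fos relative, was 5.39 and 5.15 in SCG tumors 7 and 8, against 4.70, 5.08 and 5.70 as the lowest, median and highest adrenal values. All of these lay under the detection limits. No difference between tumors can be read from them.

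Among the EGR factors tumors 2 and 8 lay ahead of tumor 7, as they did in Jun, Atf3 and Dusp1. Egr1, a factor induced by mitogens and neuronal firing, was 10.55 and 11.06 in SCG tumors 7 and 8, against 10.23, 11.94, 9.16, 9.53, 10.05 and 10.05 in adrenal tumors 1 to 6. Tumor 2 was 0.88 above the next tumor, tumors 3 and 4 were lowest, and both SCG values fell inside the adrenal range. The SD of 0.87 exceeded that of 95.7% of genes tested, and the site difference was 0.64 (SE 0.61, 95% interval -0.74 to 2.03, limma adjusted p = 0.94). It was 0.39 without tumor 8 and 1.00 without tumor 2. With tumor 7 at 0.26 above the mean of the other tumors in Egr1 and 3.75 above it in Fos, the tumor with the highest Fos was not the one with the highest Egr1.

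Egr2, known for myelination and hindbrain patterning, was 6.35 and 7.14 in SCG tumors 7 and 8, against 5.65, 5.97 and 7.05 as the lowest, median and highest adrenal values. Only tumor 8 passed its limit, and tumor 2 lay second. The difference of 0.60 (SE 0.37, limma adjusted p = 0.90) again involved values near background, and was 0.99 without tumor 7 and 0.20 without tumor 8. The further Egr2 probe set was below the limit everywhere and had tumor 2 on top, at 6.88.

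Egr3, an activity-dependent relative of Egr1, was 7.08 and 7.52 in SCG tumors 7 and 8, against 6.87, 7.22 and 7.38 as the lowest, median and highest adrenal values. The whole range was 0.65, tumor 8 was highest and tumor 2 second. The difference of 0.12 (SE 0.18, limma adjusted p = 0.96) turned to -0.10 without tumor 8, and was 0.34 without tumor 7 and 0.06 without tumor 4. The further Egr3 probe set stayed below the limit in all tumors, between 4.33 and 5.98, with tumor 8 on top and tumor 1 second at 5.94.

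Atf3 and Dusp1, a stress-induced factor and a feedback phosphatase, differed little between sites. Atf3 was 7.75 and 7.93 in SCG tumors 7 and 8, against 7.05, 7.79 and 8.62 as the lowest, median and highest adrenal values. Tumor 2 was highest, tumor 5 second at 8.15, and tumor 3 lowest and just under its limit. The site difference was 0.04 (SE 0.36, 95% interval -0.78 to 0.85, limma adjusted p = 0.99), and its sign changed when tumor 3, 6 or 8 was left out. Dusp1 was 10.77 and 10.84 in SCG tumors 7 and 8, against 10.37, 10.59 and 11.08 as the lowest, median and highest adrenal values. Tumors 2, 8 and 7 led and tumor 3 was lowest, within a range of 0.71, and the difference was 0.17 (SE 0.19, 95% interval -0.26 to 0.61, limma adjusted p = 0.95), or 0.26 without tumor 2.

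**Figure D2:**
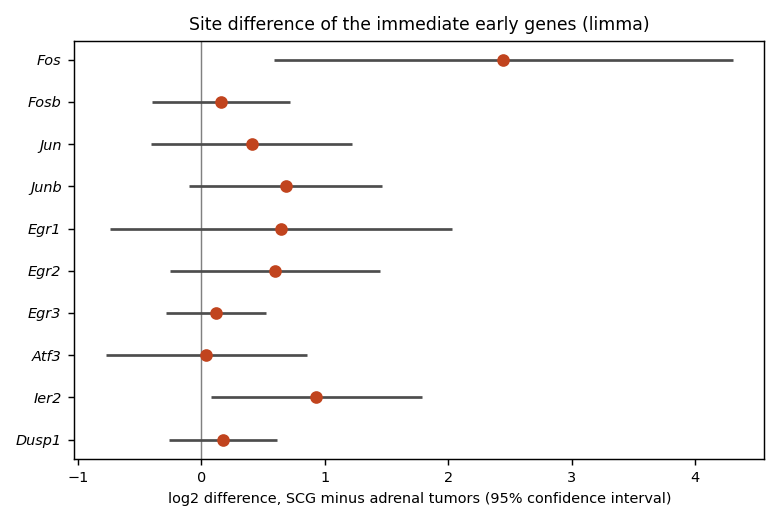
SCG minus adrenal difference of each gene on the log2 scale (x axis), with the 95% confidence interval of limma as a bar (2 SCG and 6 adrenal tumors). All 10 estimates lay above 0, from 0.04 for Atf3 to 2.45 for Fos, and the bars of Fos and Ier2 alone left out 0 before adjustment. Fosb, Junb and Egr2 had values largely under the detection limits.

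None of the 10 genes was called between sites at an adjusted p of 0.05, where 0.0185% of all genes tested were called (3 genes, all higher in SCG tumors). At an unadjusted p of 0.05, Fos and Ier2 were higher in SCG tumors, 2 of 10 against 2.68% of genes tested. The number of the 10 that passed so ran from 1 to 5 when 1 adrenal tumor was left out. All 10 differences were above 0, against 44.8% of genes tested, with a median of 0.50 beside -0.03 over all genes. Fosb, Junb and Egr2 entered this count with values largely under the detection limits, where a difference cannot be read. With the filter set at the detection limit, which left them out, the median was 0.41 beside -0.02 over all genes. The further Jun probe set went the other way, at 10.44 in SCG and 10.50 in adrenal tumors on average. In none of the 10 did both SCG tumors exceed all adrenal tumors, which 2.31% of genes did. Tumor 2 lay above at least 1 SCG tumor in every one of them. The median difference was 0.32 to 0.65 when any single tumor was left out.

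Some places in the order of the tumors recurred in many of the genes, while the full order differed from gene to gene. Tumor 2 was the highest of the 6 adrenal tumors in 10 of 10 genes, against 21.3% of genes tested. It was the highest of all 8 tumors in 5 (Fosb, Jun, Egr1, Atf3 and Dusp1), against 16.3% of genes. Tumor 7 was highest in 3 (Fos, Junb and Ier2; 17.3% of genes) and tumor 8 in 2 (Egr2 and Egr3; 7.88% of genes). Tumors 2 and 7 took the first places together in 4 (Fos, Fosb, Junb and Ier2), against 4.73% of genes. At the other end, 9 of 10 were lowest in tumor 3 or 4, against 21.7% of genes. Fosb, Junb and Egr2 entered these counts with values largely under the detection limits, where an order cannot be read. Egr3 entered them with values near the limits, where its order is uncertain. Of the 5 genes detected in every tumor, tumor 2 was the highest adrenal tumor in 5, the highest of all in 3 (Jun, Egr1 and Dusp1), and together with tumor 7 in front in 2 (Fos and Ier2). These counts describe genes measured on the same 8 arrays, so the genes are not independent of each other.

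After each gene was centred on its mean, the mean over the 10 genes was 0.60 and 0.33 in SCG tumors 7 and 8. In adrenal tumors 1 to 6 it was -0.20, 0.71, -0.52, -0.50, -0.21 and -0.20. The other 5 adrenal tumors lay below both SCG tumors and tumor 2 above them. Over all genes tested the same mean stayed within -0.06 and 0.07 in every tumor. Tumor 2 exceeded the mean of the others by a median of 0.85 over the 10 genes, against 0.07 over all genes, and tumor 7 by 0.27, against -0.07. In tumor 7 the large deviations lay in few members: Fos, Ier2 and Junb stood 3.75, 1.37 and 0.89 above the other tumors' mean, while the remaining 7 were between -0.15 and 0.29. In tumor 2 all 10 lay above, by 0.19 for Egr3 to 1.84 for Egr1. The median SD of the 10 genes was 0.52, against 0.26 over all genes tested.

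**Figure D3:**
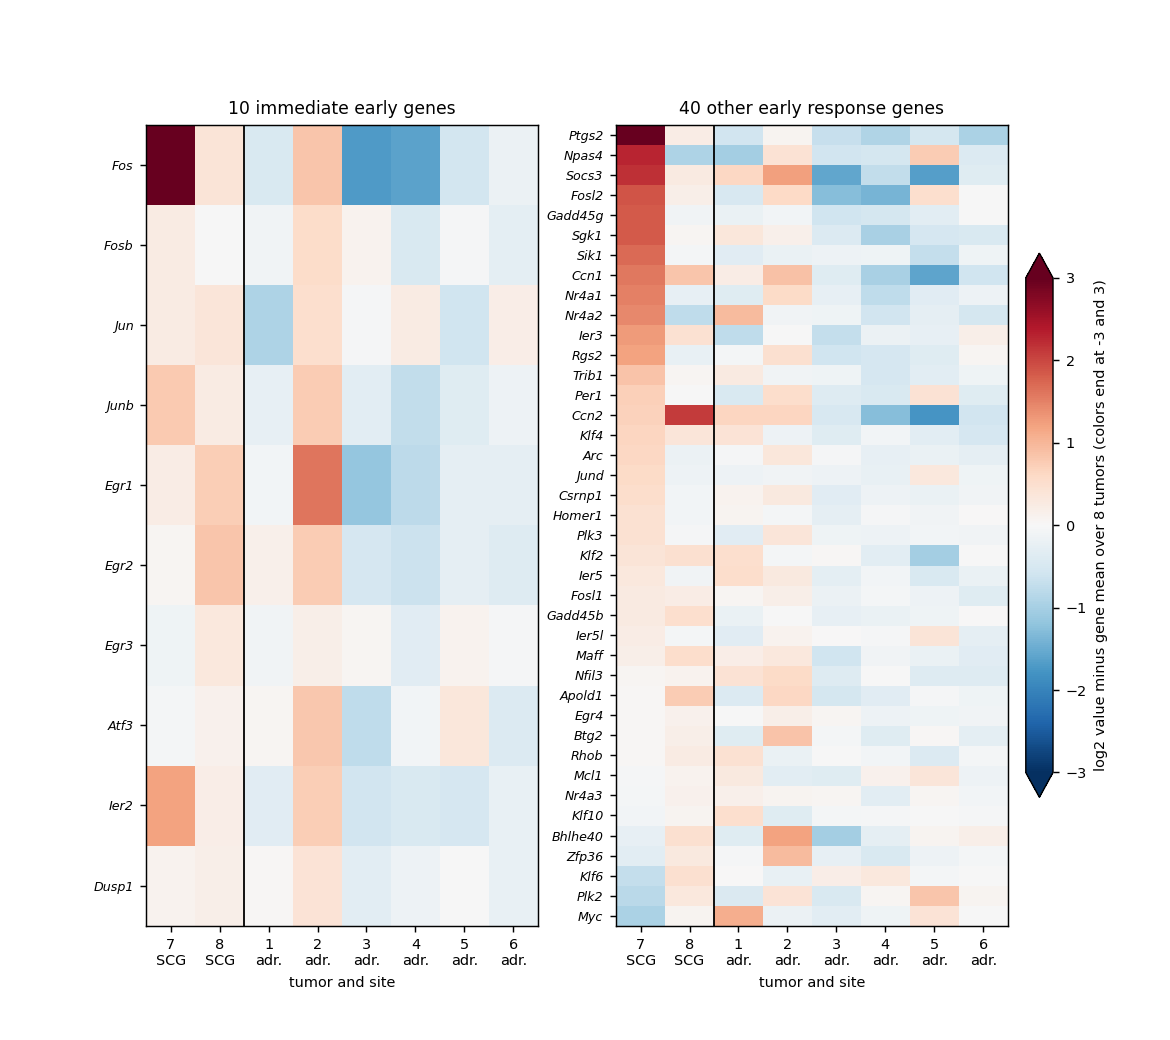
Deviation of each gene from its mean over the 8 tumors (color, log2, red above and blue below), for the 10 immediate early genes at left and 40 other early response genes at right, with SCG tumors 7 and 8 in the first columns. Tumor 2 is red or near white in every row at left, and tumor 7 is the reddest column at right, where 20 of 39 tested genes peaked.

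Other early response genes, a list of 40 of which 39 passed the filter on low values, peaked in tumor 7 in 20 cases (17.3% of all genes tested did so) and in tumor 2 in 5 (16.3%). None was called between sites, 9 were higher in SCG tumors at an unadjusted p of 0.05 (2.68% of all genes), and the median difference was 0.33, beside -0.03 over all genes. Fosl2, a further Fos relative, was 10.01 and 8.28 in SCG tumors 7 and 8, against 6.72, 7.87 and 8.71 as the lowest, median and highest adrenal values. Npas4, a neuronal activity factor, was 8.05 in tumor 7 and 4.86 in tumor 8, against 4.74 to 6.52 in the adrenal tumors, and was detected in tumor 7 alone. In both genes tumor 7 was highest by more than 1 on the log2 scale.

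Socs3, a feedback inhibitor of cytokine signaling, was 9.86 and 7.92 in SCG tumors 7 and 8, against 6.01, 7.11 and 8.89 in the adrenal tumors as lowest, median and highest, with tumor 2 second as for Fos. Ccn1, a matricellular protein gene and YAP target, was 8.90 and 8.14 in the SCG tumors, against 5.72 to 8.20 in the adrenal tumors. Its relative Ccn2 was 10.66 and 12.08 in the SCG tumors, against 8.22 to 10.63 in the adrenal tumors. In Ccn2 both SCG tumors exceeded every adrenal tumor, narrowly in the case of tumor 7, and it was not called (difference 1.86, SE 0.68, limma adjusted p = 0.90). Arc and Fosl1 were detected in no tumor.

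Upstream kinases and factors had SDs of 0.11 to 0.59, around the median of 0.26 over all genes tested. Of 23 listed, 17 had a named probe set here, none was called or had an unadjusted p under 0.05 (limma), and the median difference was -0.02. The list mean, over members that deviated in both directions, stayed between -0.19 and 0.11 in all 8 tumors. Elk3, a SRF partner that varied most of them, was 7.93 and 8.07 in SCG tumors 7 and 8, against 6.19 to 7.70 in the adrenal tumors. Mapk9, Nras, Braf and Mapk10 followed, with SDs of 0.37 to 0.49. These are mRNA levels, and kinase activity was not measured.

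Feedback genes, which damp ERK signaling or destabilize early mRNAs, numbered 17, of which Zfp36 is also in the list of other early genes, and none was called. At an unadjusted p of 0.05, 4 were higher in SCG tumors (2.68% of all genes tested), and the median difference was 0.38, beside -0.03 over all genes. Dusp6, a phosphatase of ERK, was 10.25 and 11.69 in SCG tumors 7 and 8, against 9.98, 10.46 and 11.62 as the lowest, median and highest adrenal values. Tumor 2 was again the top adrenal tumor, as for Egr1, while tumor 7 fell among the low ones. Spry4, an inhibitor of receptor tyrosine kinase signaling, was 8.55 and 10.30 in the SCG tumors, against 7.93 to 10.46 in the adrenal tumors, with tumor 3 lowest. Zfp36l2, which encodes an mRNA decay factor, was 10.40 and 9.73 in the SCG tumors, against 8.41 to 9.63 in the adrenal tumors, so that both SCG tumors were higher than all others (difference 1.06, SE 0.34, limma adjusted p = 0.90). Dusp4 and Zfp36l1 varied by SDs of 0.61 and 0.56 with no separation of the sites.

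**Figure D4:**
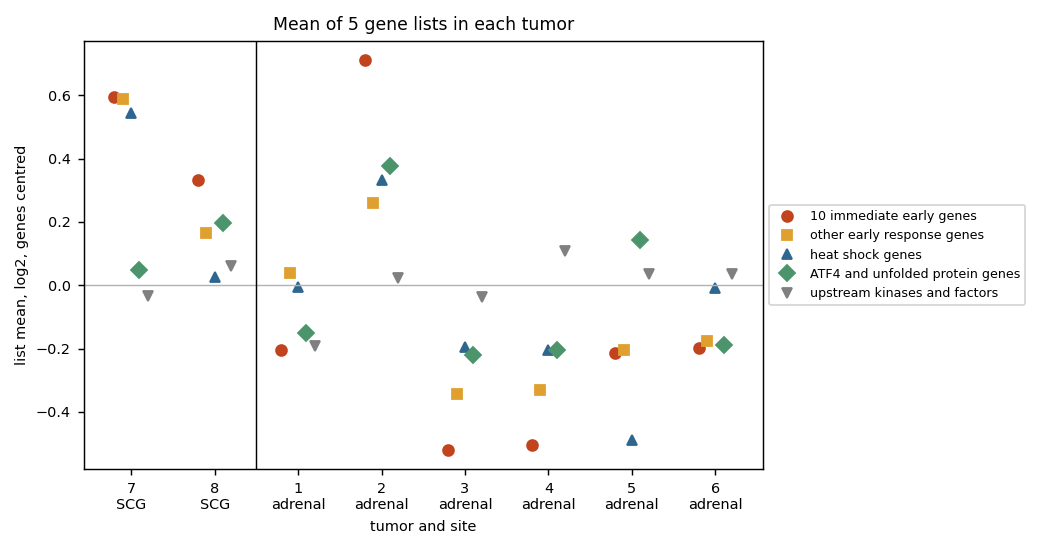
Mean of 5 gene lists in each tumor (y axis, log2 with each gene centred on its mean over 8 tumors; x axis, SCG tumors at left). Immediate early genes peaked in tumor 2 at 0.71 and tumor 7 at 0.60, and upstream genes stayed between -0.19 and 0.11. The heat shock mean was 0.33 and 0.54 in tumors 2 and 7, in tumor 7 largely through Hspa1a and Hspa1b.

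Other measures were set beside the early genes over the 8 tumors, and their part in the result was not tested. The heat shock list of 12 genes averaged 0.54 and 0.03 in SCG tumors 7 and 8, against -0.49 to 0.33 in the adrenal tumors, where tumor 2 was again the highest. Its Pearson correlation with the mean of the 10 genes was 0.81 and its Spearman correlation 0.86 (n = 8 tumors), and the Pearson value was 0.94 without tumors 5 and 7. A list of 12 ATF4 and unfolded protein response genes was 0.05 and 0.20 in the SCG tumors, against -0.22 to 0.38 in the adrenal tumors, with 6 of 12 genes highest in tumor 2. It correlated at 0.82 (Spearman 0.79), and at 0.59 without tumors 2 and 8. These 2 were the highest of 12 relations computed. All points of a relation share their arrays.

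The Gapdh gap correlated with the early gene mean at -0.02 (Spearman 0.31), and at 0.53 without tumors 1 and 7. The Actb gap correlated at 0.12 (Spearman 0.31), and at 0.19 without the same tumors. Tumor 2 had a Gapdh gap of 1.14, below tumors 1 and 7 and above tumors 3 to 6 and 8, and the part of RNA integrity in the result was not tested. Among cell type lists, all 12 macrophage markers were detected in tumors 7 and 8, and the list mean was -0.68 and 0.31 there, against -0.61 to 0.38 in the adrenal tumors, where tumor 2 stood at 0.16. Skeletal muscle markers averaged 1.12 and 0.61 in SCG tumors 7 and 8, against -0.47 to -0.07 in the adrenal tumors, with 8 and 7 of 12 detected in tumors 7 and 8, against 0 to 2 in each adrenal tumor. Acta1, skeletal muscle actin, was 9.63 and 9.20 in SCG tumors 7 and 8, against 6.99 to 7.36 in the adrenal tumors, and was called (limma adjusted p = 0.0040), as was the troponin Tnnt3 (0.014), which was under the detection limit in all 8. The muscle list mean correlated with the early gene mean at 0.65 (Spearman 0.52, n = 8), and at 0.32 without tumors 7 and 8. None of the 12 muscle markers was above the limit in tumor 2.

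Noradrenergic markers averaged -2.86 and 0.55 in SCG tumors 7 and 8, against 0.23 to 0.63 in the adrenal tumors. Of the 3 tumors that led in early genes, adrenal tumor 2 stood at 0.29, while tumor 8 lay within the adrenal range and tumor 7 far below it. Schwann cell markers averaged -1.70 and 0.24 in the SCG tumors, against -0.59 to 0.85 in the adrenal tumors. Of 8 such markers tested, 3 were detected in tumor 7 and 8 in tumor 8, against 5 to 8 in each adrenal tumor. Sox10 was detected in all 8 tumors, and Mbp was highest in tumor 7, at 10.60. Endothelial markers averaged 0.19 and 0.63 in the SCG tumors, against -0.58 to 0.21 in the adrenal tumors, and correlated with the early gene mean at 0.60 (Spearman 0.64, n = 8). Without tumors 1, 6 and 7, tumor 8 was set against adrenal tumors 2 to 5, and 0 of the 10 genes and 7 of all genes tested were called. That fit took its spread from the adrenal tumors alone.

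The genes whose pattern was most like the early gene mean were sought by Pearson correlation over the 8 tumors among 2377 genes that were tested, detected at least once and had an SD of at least 0.5. The first 10 were Socs2, Galnt13, Lancl3, Hspb1, Tmem59l, Cd14, Vgf, Tmem150c, Cebpb and Fbxo2, with correlations of 0.95 to 0.88. Socs2 was 10.71 and 10.84 in SCG tumors 7 and 8, against 9.92, 10.82, 9.59, 9.69, 9.72 and 9.76 in adrenal tumors 1 to 6. Tumors 2, 7 and 8 stood apart from the rest, and the correlation was 0.94 without tumor 7. Cd14 was 7.55 and 8.38 in the SCG tumors and 9.29 in tumor 2, against 6.07 to 7.07 in the other adrenal tumors, and its correlation was 0.99 without tumor 7. Vgf was 12.37 and 11.22 in the SCG tumors and 12.11 in tumor 2, against 9.98 to 11.57 in the other adrenal tumors. Hspb1 is also in the heat shock list and Cd14 in the macrophage list. Unlike Cd14, the macrophage list mean correlated with the early gene mean at -0.26 (Spearman -0.29). The first 10 genes were picked for their correlation with the early gene mean, so their values are a description.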

How the data were processed

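Total RNA of 2 SCG and 6 adrenal tumors was measured on 8 arrays. The authors deposited log2 values for 45101 probe sets, which already include background correction and normalization between arrays. RMA and Partek 6.6 appear in the submitters' processing notes, but gcRMA in the Methods. Which of them made these values is unsettled, and they treat dim probe sets differently. No array was normalized again, and precision is limited by the number of arrays.

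The platform annotation gave 1 gene to 34958 probe sets, several to 932 and none to 9211, and 34754 of the first matched RefSeq by Entrez identifier. Each gene was represented by its brightest probe set on average, following the Methods. The 16254 genes that exceeded log2 5 in 2 or more tumors were tested with limma 3.58.1 in R 4.3.3 (lmFit, eBayes, Benjamini-Hochberg over all genes tested, threshold 0.05). All 10 immediate early genes passed this filter. The step was tested on simulated data. For single values an exact permutation test over the 28 site assignments was added. Python 3.11.15, numpy 2.4.6, pandas 2.3.3, scipy 1.17.1 and matplotlib 3.10.9 were used.

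The 10 genes and all lists were chosen with earlier results of these data known, so no p is given for a mean over them or for its correlations. Named were the 10 genes, called genes of other lists, the 5 genes of highest SD and undetected genes of the other early, upstream and feedback lists, the 10 genes most like the early gene mean, and markers of printed lists. Alternatives changed the normalization, filter, probe set choice, prior variance or detection limit, or dropped 1 tumor at a time. The fit without tumors 1, 6 and 7 was chosen after seeing the data. Normal adrenals were not analysed here, so levels are described among tumors.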

Additional observations from a re-analysis of the deposited data

Results flagged for a closer look

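Tumor 2 lay apart from the other adrenal tumors in several measures, by its gap to the nearest other value divided by the whole range. For Ier2 this share was 0.733 among the 6 adrenal tumors (9.82 in tumor 2, next 8.86, lowest 8.51). For the mean of the 10 immediate early genes it was 0.739 (0.71 in tumor 2, next -0.20, lowest -0.52). For the further probe set of Jun it was 0.713 among the adrenal tumors (11.22 in tumor 2, next 10.54) and 0.656 over all 8 tumors (next 10.59, in SCG tumor 8). The critical values are 0.625 for 6 tumors and 0.526 for 8. Of 28 measures examined in this way 4 exceeded these values, all of them for tumor 2. The usual chance rate of about 1 in 20 does not apply, because the genes were chosen with earlier results known. The shares are therefore a description and no test of tumor 2. The measures also share their arrays and overlap: the mean includes Ier2, and the further Jun probe set is counted at both numbers of tumors.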

How the results depend on the processing

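The 3 genes called between sites became 1 with the receptor-based filter, 6 with the mean of all probe sets and 7 without tumors 1, 6 and 7. Leaving out 1 tumor gave 2 to 954, with 11 without tumor 7 and 954 without tumor 8. Among the 10 immediate early genes 0 were called, and 0 to 1 when 1 tumor was left out, the 1 being Fos without tumor 8. At an unadjusted p of 0.05, 2 of the 10 passed in the fit of all tumors, 5 without tumor 2, and 1 without tumor 1, 3, 4, 5 or 6. Without tumor 7, which leaves 1 SCG tumor, the differences of Fos and Ier2 were 1.00 and 0.43. Of 147 alternative differences of single members, 141 kept their sign and side of the threshold, 1 newly passed (Fos without tumor 8) and 5 changed sign: Fosb was -0.045 without tumors 1, 6 and 7, Egr3 ran from -0.10 to 0.34 with 1 tumor left out, and Atf3 from -0.11 to 0.20, being negative without tumor 3, 6 or 8. Tumors 2, 7 and 8 led the list mean, in this order, under every alternative with all 8 tumors. With log2 5 as the limit, 10 genes counted as detected in tumors 1 and 3, against 6. Without the 2 tumors farthest from the median, the correlation of the list mean with the Gapdh gap was 0.53 (-0.02 over 8 tumors) and that with noradrenergic markers 0.21 (-0.51). The cause of these shifts was not tested. With the receptor-based filter 7 of the 10 genes were tested. No paired analysis was possible because the labels do not say which tumors, if any, came from the same mouse. With 2 SCG tumors, 1 of which stands apart, the intervals are wide, and differences within them were not detectable with these arrays.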

Other observations

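Some genes outside the naming rule, chosen after their values were seen, had the same leading tumors. Ptgs2, the inducible prostaglandin synthase and a classic early gene, was 7.89 in SCG tumor 7 and 4.79 in SCG tumor 8, against 3.62 to 4.66 in the adrenal tumors. It was detected in tumor 7 only and did not pass the filter on low values. Hspa1b, an inducible HSP70 gene, was 11.08 and 7.31 in SCG tumors 7 and 8, against 8.94 in tumor 2 and 5.96 to 7.02 in the other adrenal tumors. Its neighbor Hspa1a was 9.55 and 6.21 in the SCG tumors, against 7.37 in tumor 2 and 5.49 to 5.73 in the other adrenal tumors. The transcripts of both are nearly identical, so their values are uncertain as separate measurements. Tumors 7 and 2 held the first places in both, as in Fos and Ier2.

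The amino acid stress genes Chac1 and Trib3 had tumor 2 in front, as Atf3 did. Chac1 was 8.28 and 8.41 in SCG tumors 7 and 8, against 9.01 in tumor 2 and 7.27 to 8.32 in the other adrenal tumors. Trib3 was 7.96 and 8.12 in the SCG tumors, against 9.06 in tumor 2 and 7.50 to 7.97 in the other adrenal tumors. Heat shock genes did not move as one: Bag3 was 9.09 and 11.71 in the SCG tumors, against 11.17 to 11.91 in the adrenal tumors, so that the cochaperone was lowest where Hspa1b was highest.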
